A study of Rattus norvegicus with 64 samples.

Results

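Neurotrophins and their receptors were followed in the rat entorhinal cortex as 5 genes, Bdnf, Ntf3, Ntrk2, Ntrk3 and Ngfr, out of 17260 genes with counts. The members were taken by gene symbol, and all 5 passed the filter on low counts. The 64 libraries of total RNA, depleted of ribosomal RNA, came from Long Evans rats that carried no transgene or treatment. Layer II (LII) and the layers below it (LDeep) were dissected from medial (MEC) and lateral (LEC) entorhinal cortex at postnatal day 2 (P2, 5 libraries for each of the 4 dissections), P9 (4 each), P23 (3 each) and P45 (4 each). LDeep of MEC was layers III to VI according to the study's methods, which describe the dissection of MEC only. Tissue was cut out under a microscope, so each library holds every cell type of the slice, and fewer cells of a type cannot be told apart from less RNA per cell.

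Neurotrophins are secreted growth factors that neurons and other cells make as proneurotrophins and cleave to mature ligands. Brain-derived neurotrophic factor (Bdnf) acts through the receptor tyrosine kinase TrkB (Ntrk2), and neurotrophin-3 (Ntf3) mainly through TrkC (Ntrk3). The p75 receptor (Ngfr) binds all neurotrophins and, with a Vps10p-domain partner, their uncleaved forms. In cortex, Bdnf is known as a gene that neuronal activity turns on, and truncated TrkB is abundant in astrocytes.

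In the Rn6 annotation of the files, Bdnf lay at chr3:100768637-100819214 on the plus strand, and its 9 exon blocks summed to 6072 bases. Ntf3 lay at chr4:158636883-158705886 on the minus strand, with 4 blocks of 1560 bases in all. The receptor genes Ntrk2 (chr17:5934690-6244627, 19 blocks, 9627 bases), Ntrk3 (chr1:139890539-140262503, 19 blocks, 2822 bases) and Ngfr (chr10:83389841-83408061, 6 blocks, 3260 bases) were also on the minus strand. None of them overlapped another counted gene on either strand. Counts were made per gene, so transcripts from different start sites of Bdnf, and full-length and truncated forms of Ntrk2, were pooled. A single block of 4862 bases inside Ntrk2 made up 50.5% of its exon length.

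RefSeq promoter windows (assembly GRCr8, 250 bases before to 50 after each start) were given for Bdnf, which had 6, and Ntf3, which had 3, a pair of them shifted by a single base. The stretches below are shown because Bdnf and Ntf3 moved in opposite directions with age and because Bdnf is read from several starts. The motif searched was TGACG, the core bound by CREB-family factors that answer to neuronal activity. Its reverse complement, which reads CGTCA, was searched as well. Either was found in 1 of the 6 Bdnf windows and in 0 of the 3 Ntf3 windows. Of all 33469 rat windows, 21.2% held a match. In the first sequence, the 250 bases before the start at chr3:116637608-116637857 (plus strand), capitals mark this match, which begins 35 bases before the start. The second sequence is the same stretch before a start of Ntf3, at chr4:160670624-160670873 (minus strand).
Bdnf: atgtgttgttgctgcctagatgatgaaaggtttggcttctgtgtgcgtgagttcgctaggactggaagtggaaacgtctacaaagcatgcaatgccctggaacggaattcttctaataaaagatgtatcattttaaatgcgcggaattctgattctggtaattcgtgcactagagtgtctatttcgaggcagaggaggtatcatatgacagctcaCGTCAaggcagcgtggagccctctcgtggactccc
Ntf3: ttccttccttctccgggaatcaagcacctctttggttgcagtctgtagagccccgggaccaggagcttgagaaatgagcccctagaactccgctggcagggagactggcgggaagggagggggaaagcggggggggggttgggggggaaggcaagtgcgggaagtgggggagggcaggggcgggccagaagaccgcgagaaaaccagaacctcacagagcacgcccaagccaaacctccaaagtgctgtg
The count files do not say which start a read came from, so the windows are a description of the locus, and a match is not a binding site.

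Libraries held 3894334 to 11439143 read pairs assigned to genes (median 7569158), so that 1 count was worth 0.0874 to 0.257 CPM, which is the count scaled to a fixed library size. Replicates of the same group differed by more than sampling noise in all 100 pairs. Against the labelled layers, all 7 deep-layer neuron markers were lower in LII. Of 4 layer II markers 3 were higher, with Reln at an LFC of 1.48 ± 0.14 (SE), and 1, Rorb, was lower (LFC -0.32 ± 0.09). Of all genes tested, 54% differed between layers (BH adjusted p below 0.05). Single libraries went against their labels in single markers or in the level of a marker list. The library labelled P2 MEC LII replicate 1 had Slc17a7, the vesicular glutamate transporter of cortical excitatory neurons, at -0.21 log2 CPM. The other 63 libraries ranged from 7.89 to 11.1. Its mean level of excitatory neuron markers was 1.53 log2 CPM against at least 5.54 elsewhere. Its level of the gene Zic1 was 8.76 log2 CPM against at most 6.37 elsewhere. Its summed level of GABAergic markers was 1578 CPM against at most 855 CPM elsewhere. Which tissue this library holds was not tested, and it was kept in the main fit. The library labelled P2 MEC LDeep replicate 1 had Reln at 9.49 log2 CPM, within the range of P2 MEC LII (9.33 to 10.5) and above the other 4 libraries of its group (7.66 to 8.39). Its level of the deep-layer marker Tle4, 7.69 log2 CPM, was above every P2 MEC LII library (6.28 to 7.18), so its layer markers were mixed. In 5 libraries the level of meningeal fibroblast markers was unlike that of their layer: P2 MEC LII replicates 1 and 3 and P45 MEC LII replicate 4 were low, and P2 MEC LDeep replicate 1 and P9 MEC LDeep replicate 3 were high. In 3 libraries (P2 MEC LDeep replicate 4, P45 LEC LII replicate 2 and P45 LEC LDeep replicate 4) ribosomal RNA genes took over 0.2% of counts, against a median of 0.0315%. Results are given for all libraries and, where it matters, without these.

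**Figure D1:**
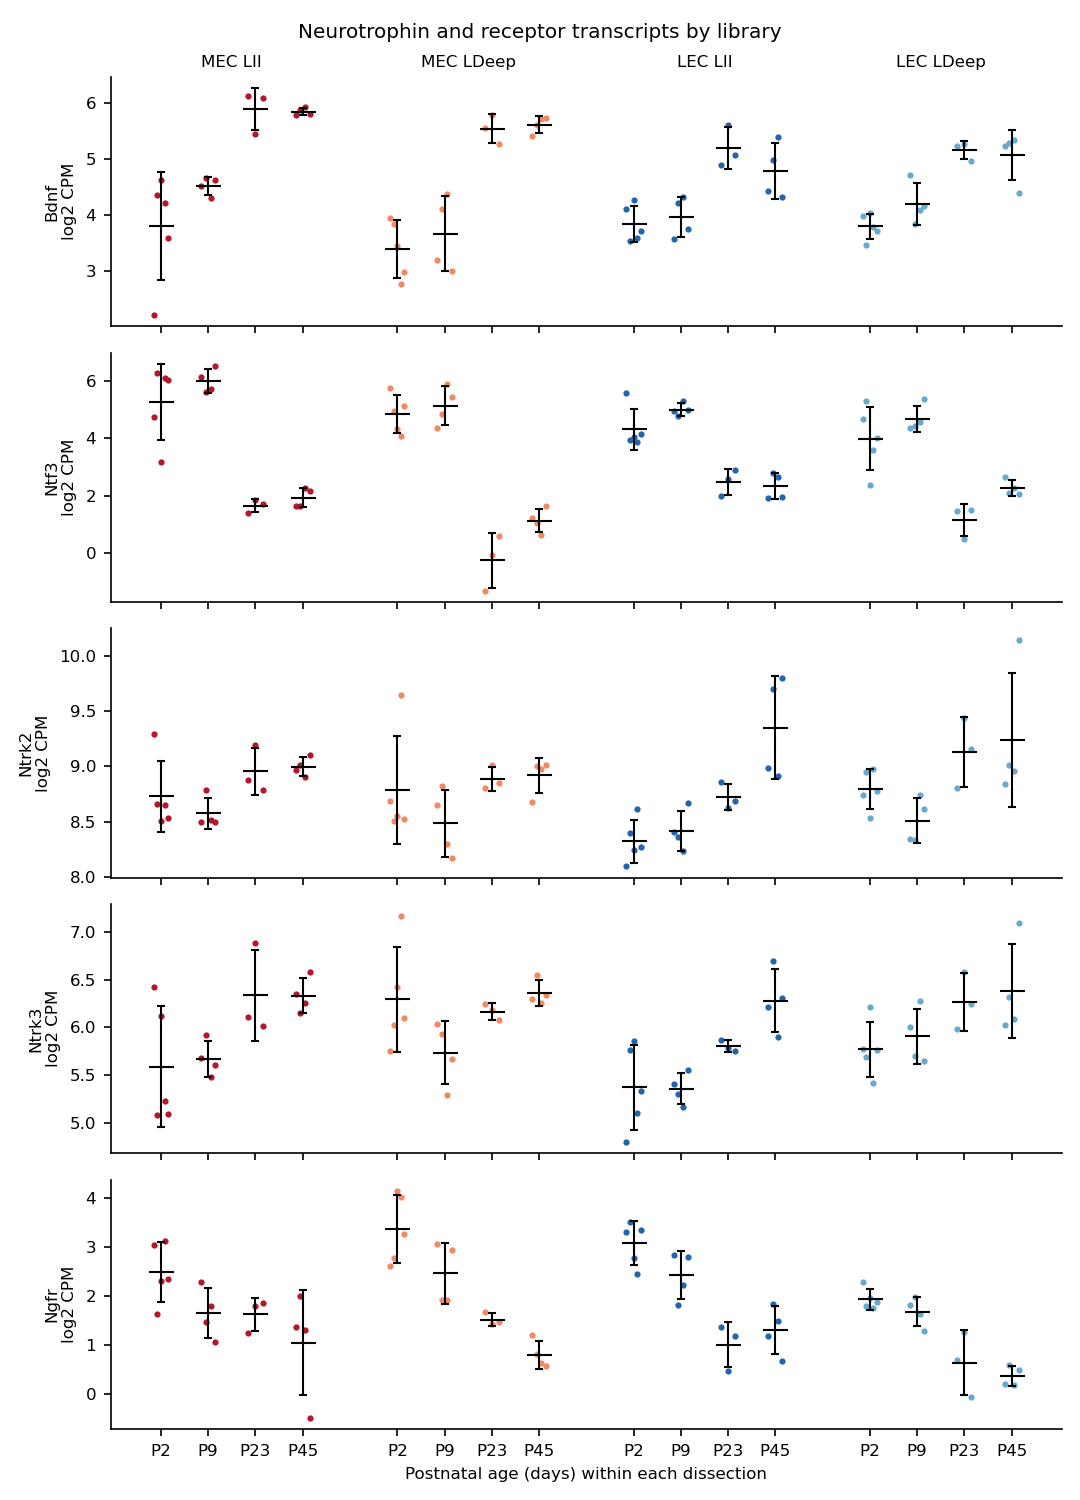
Level of each member (log2 CPM, vertical axes) in each of the 64 libraries, grouped by dissection and postnatal age; points are libraries, and black marks are group means ± SD. Bdnf is higher and Ntf3 lower at P23 and P45 than at P2 and P9 in each dissection, while Ntrk2 and Ntrk3 shift little and Ngfr falls.

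The first question was how each gene changed from the 36 younger libraries (P2 and P9) to the 28 older ones (P23 and P45). All 5 members were differentially expressed (BH adjusted p below 0.05), where 81.6% of the 12521 genes tested were. Bdnf rose 2.75-fold (LFC 1.46 ± 0.10, SE, BH adjusted p = 8.5e-19), and Ntf3 fell 11.6-fold (LFC -3.53 ± 0.20, BH adjusted p = 2.5e-23). Ngfr fell 2.75-fold (LFC -1.46 ± 0.14, BH adjusted p = 1.7e-13), and the receptor kinases rose by far less, Ntrk2 1.37-fold (LFC 0.45 ± 0.08, BH adjusted p = 4.9e-07) and Ntrk3 1.42-fold (LFC 0.51 ± 0.09, BH adjusted p = 1.7e-06). The median LFC of all genes was 0.0058.

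Bdnf is described first, as the ligand of TrkB. In MEC LII, Bdnf stood at 2.22, 4.35, 4.63, 4.20 and 3.59 log2 CPM at P2 and at 4.51, 4.66, 4.30 and 4.62 at P9. The older libraries had 6.11, 5.45 and 6.08 at P23, and 5.77, 5.87, 5.92 and 5.80 at P45. The lowest of these was P2 replicate 1, which lacked Slc17a7, and the younger and older libraries did not overlap. Such separations of younger and older libraries, here and below, are descriptions, and their share over all genes was not counted. In MEC LDeep, Bdnf stood at 3.94, 3.84, 3.45, 2.77 and 2.99 log2 CPM at P2 and at 3.2, 4.10, 4.37 and 3.00 at P9. At the later ages it stood at 5.55, 5.79 and 5.27 at P23, and 5.40, 5.60, 5.70 and 5.73 at P45. Here too every older library was above every younger one. In LEC LII, Bdnf stood at 4.11, 3.54, 4.26, 3.59 and 3.71 log2 CPM at P2 and at 3.57, 4.22, 4.32 and 3.75 at P9. In older animals the values were 4.90, 5.61 and 5.07 at P23, and 4.43, 4.98, 5.38 and 4.33 at P45. The highest younger and lowest older libraries of LEC LII nearly met. In LEC LDeep, Bdnf stood at 3.98, 3.47, 4.03, 3.78 and 3.72 log2 CPM at P2 and at 4.71, 3.83, 4.09 and 4.15 at P9. Later values were 5.23, 5.27 and 4.97 at P23, and 5.23, 5.28, 5.34 and 4.40 at P45. One older library, P45 LEC LDeep replicate 4, which had a high ribosomal RNA share, fell within the younger range.

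The rise of Bdnf was called in each dissection (66.5%, 66.2%, 62.7% and 64.5% of genes were, in the order MEC LII, MEC LDeep, LEC LII and LEC LDeep), with an LFC of 1.63 ± 0.20 in MEC LII, 1.97 ± 0.21 in MEC LDeep, 1.10 ± 0.21 in LEC LII and 1.13 ± 0.21 in LEC LDeep (largest BH adjusted p = 1.1e-05). Most of it fell between P9 and P23 (LFC 1.34 ± 0.15, BH adjusted p = 7.0e-11), a step at which 64.6% of genes changed. The step from P2 to P9 was small (LFC 0.35 ± 0.14, BH adjusted p = 0.027; background 63.4%) and not firm, since it was lost in 3 of 10 alternative settings, among them the fit without the 3 libraries with ribosomal RNA (LFC 0.31, BH adjusted p = 0.051), and in 8 of 80 fits without 1 library or replicate number (LFC 0.27 to 0.45). From P23 to P45 no member was called (background 3.85%), and the LFC of Bdnf was -0.11 ± 0.15.

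Ntf3, the ligand of TrkC, took the opposite course. In MEC LII, Ntf3 stood at 4.75, 6.28, 3.17, 6.10 and 6.0 log2 CPM at P2 and at 6.12, 5.61, 5.70 and 6.51 at P9. The older libraries had 1.4, 1.85 and 1.69 at P23, and 1.64, 1.64, 2.27 and 2.17 at P45. The younger and older libraries were separated although the P2 group spread widely, its 2 lowest libraries being the ones with few meningeal transcripts. Those 2 libraries, replicates 1 and 3, also had the lowest mean levels of excitatory neuron markers in the group (1.53 and 5.54 log2 CPM). Replicate 1 was the library that lacked Slc17a7. In MEC LDeep, Ntf3 stood at 5.74, 4.95, 4.32, 4.08 and 5.11 log2 CPM at P2 and at 4.35, 4.83, 5.89 and 5.42 at P9. At the later ages it stood at -1.30, -0.07 and 0.60 at P23, and 1.20, 1.05, 0.64 and 1.63 at P45. The P23 values of MEC LDeep rest on 1, 6 and 11 counts, the lowest of all groups. In LEC LII, Ntf3 stood at 5.57, 3.92, 4.02, 3.86 and 4.13 log2 CPM at P2 and at 4.95, 4.76, 5.29 and 4.97 at P9. In older animals the values were 1.97, 2.57 and 2.88 at P23, and 1.93, 2.78, 2.64 and 1.94 at P45. P2 LEC LII replicate 1 stood above its 4 companions, and no older library reached the younger range. In LEC LDeep, Ntf3 stood at 4.65, 5.28, 2.37, 3.60 and 4.01 log2 CPM at P2 and at 4.34, 4.42, 4.55 and 5.35 at P9. Later values were 1.45, 0.50 and 1.49 at P23, and 2.64, 2.09, 2.26 and 2.06 at P45. Only in this dissection did a younger library, P2 replicate 3, lie within the older range.

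The fall of Ntf3 had an LFC of -4.11 ± 0.38 in MEC LII, -4.81 ± 0.43 in MEC LDeep, -2.36 ± 0.36 in LEC LII and -2.85 ± 0.38 in LEC LDeep, and each was called (largest BH adjusted p = 1.5e-07). It took place between P9 and P23 (LFC -4.09 ± 0.30, BH adjusted p = 2.7e-17). Before that step the LFC was 0.42 ± 0.20 (P9 minus P2, BH adjusted p = 0.065), and after it 0.69 ± 0.34 (P45 minus P23, BH adjusted p = 0.31). Per kilobase of exon, Ntf3 averaged 19.4 ± 7.14 CPM per kb at P2 (SD over 5 replicate numbers, each the mean of its 4 libraries) and 25.7 ± 5.71 at P9 (n = 4), then 1.78 ± 0.42 at P23 (n = 3) and 2.43 ± 0.14 at P45 (n = 4). On the same scale Bdnf went from 2.25 ± 0.39 at P2 and 2.90 ± 0.25 at P9 to 7.38 ± 0.33 at P23, then to 6.94 ± 0.85 at P45, so the ligand with the higher level per kilobase changed over. Without scaling to exon length, mean CPM at P2, P9, P23 and P45 was 13.7, 17.6, 44.8 and 42.2 for Bdnf. That of Ntf3 was 30.3, 40.1, 2.78 and 3.78.

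The balance of the ligands was measured within libraries as the log2 ratio of Bdnf to Ntf3 per kilobase, which no scaling between libraries can alter. It averaged -2.95 ± 0.70 (SD, n = 9 replicate numbers) at P2/P9 and 1.91 ± 0.60 (n = 7) at P23/P45, a difference of 4.86 log2 units. Every younger value was below 0, from -3.66 to -1.33, and every older one above it, from 1.22 to 2.92. The sign of single values depends on the annotated exon lengths, but the difference between ages does not. The exact two-sided permutation test gave p = 0.000175, the smallest that these 11440 splits allow. By group, the older ratio was highest in MEC LDeep at P23 (4.33 ± 1.47, n = 3) and lowest in LEC LII at P45 (0.54 ± 0.23, n = 4).

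**Figure D2:**
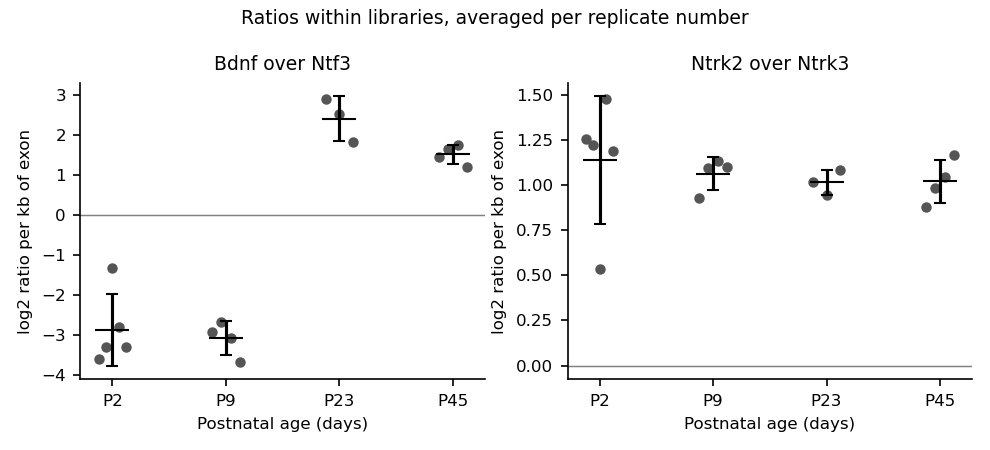
Log2 ratio of Bdnf to Ntf3 (left) and of Ntrk2 to Ntrk3 (right) per kb of exon at each postnatal age; each point is the mean of the 4 libraries that share a replicate number, and black marks are mean ± SD (n = 5, 4, 3 and 4). The ligand ratio lies below 0 at P2 and P9 and above it at P23 and P45, whereas the receptor ratio stays close to 1 at all ages.

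Ntf4, another ligand of TrkB, was scarce, with 0 to 9 counts per library, and did not pass the filter. With all genes kept, its LFC with age was -0.01 ± 0.37 (edgeR, BH adjusted p = 1.0), so no change was detectable at this depth.

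Ntrk2 had the highest level per kilobase of the 5 members at each age. It averaged 43.3 ± 7.05 CPM per kb at P2 (SD, n = 5), 37.8 ± 1.54 at P9 (n = 4), 51.1 ± 5.05 at P23 (n = 3) and 60.4 ± 14.4 at P45 (n = 4). Ntrk3 averaged 20.7 ± 3.38 at P2 and 18.3 ± 1.16 at P9, and its later means were 25.6 ± 3.96 (P23) and 29.2 ± 4.47 (P45). Both were thus lowest at P9 and rose between P9 and P23 (Ntrk2 LFC 0.43 ± 0.12, BH adjusted p = 0.0011; Ntrk3 LFC 0.48 ± 0.14, BH adjusted p = 0.0021). From P2 to P9 neither was called (LFC -0.18 ± 0.10 and -0.14 ± 0.12).

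Ntrk2, the receptor of Bdnf, ranged from 8.50 to 9.29 log2 CPM (median 8.54) in the 9 younger MEC LII libraries and from 8.79 to 9.20 (median 8.97) in the 7 older ones. In MEC LDeep it went from 8.17 to 9.64 (median 8.55) in younger and from 8.68 to 9.01 (median 8.98) in older libraries. The younger and older ranges overlapped in both, and the LFC of 0.31 ± 0.15 and 0.23 ± 0.15 were not called (BH adjusted p = 0.069 and 0.19). In LEC LII, Ntrk2 ranged from 8.10 to 8.67 (median 8.36) in younger and from 8.63 to 9.80 (median 8.91) in older libraries. In LEC LDeep it ranged from 8.33 to 8.98 (median 8.74) and from 8.80 to 10.1 (median 9.01). In LEC the rise was called in LII (LFC 0.69 ± 0.15, BH adjusted p = 0.00012) and LDeep (LFC 0.59 ± 0.15, BH adjusted p = 0.00078), but the difference of the rise between MEC and LEC was itself not called (LFC -0.37 ± 0.15, BH adjusted p = 0.19).

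The 3 libraries with the most ribosomal RNA also had high Ntrk2. It stood at 9.64 log2 CPM in P2 MEC LDeep replicate 4, at 9.70 in P45 LEC LII replicate 2 and at 10.1 in P45 LEC LDeep replicate 4, and the other libraries of those groups reached at most 9.01 apart from P45 LEC LII replicate 4 at 9.80. Across the 64 libraries, deviations of Ntrk2 from its group mean went with those of the ribosomal RNA share (r = 0.65, a description, since both come from the same library), and for Ntrk3 r was 0.56. The ribosomal RNA share also differed with age, with a median of 0.0175% of counts at P2/P9 and 0.0573% at P23/P45, and its part in the rise of both kinases was not tested. Without the 3 libraries the age difference of Ntrk2 was 0.41 ± 0.06 (BH adjusted p = 1.5e-08), and the rise was also called in MEC LII (LFC 0.27, BH adjusted p = 0.036) and MEC LDeep (LFC 0.38, BH adjusted p = 0.0038). Astrocyte markers were higher at the older ages too (7 of 9 rose and 1 fell, where 81.6% of all genes were called). Their summed level was 662 to 2079 CPM at P2 and 2523 to 5283 CPM at P45, with none at 0. Their part in the rise of Ntrk2 was not tested.

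**Figure D3:**
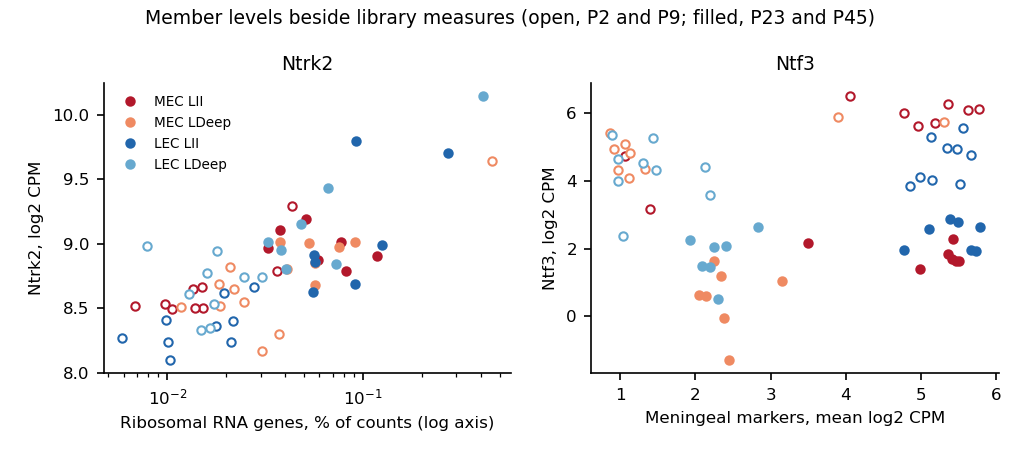
Left, Ntrk2 (log2 CPM) against the share of counts on ribosomal RNA genes (%, log axis); right, Ntf3 (log2 CPM) against the mean level of meningeal fibroblast markers (log2 CPM); each of the 64 points is a library, coloured by dissection, open at P2 and P9 and filled at P23 and P45. The highest Ntrk2 value, 10.1, lies among the 3 libraries above 0.2% ribosomal RNA, and at both low and high meningeal levels the older libraries have at most 2.88 log2 CPM of Ntf3, below all but 1 of the younger ones.

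Ntrk3, the receptor of Ntf3, ranged from 5.08 to 6.43 log2 CPM (median 5.61) in younger and from 6.01 to 6.88 (median 6.25) in older MEC LII libraries, and the highest younger one was again P2 replicate 1, which lacked Slc17a7. The ranges of younger and older libraries overlapped in all 4 dissections. Ntrk3 rose in MEC LII (LFC 0.67 ± 0.18, BH adjusted p = 0.0012), LEC LII (LFC 0.67 ± 0.19, BH adjusted p = 0.0017) and LEC LDeep (LFC 0.51 ± 0.18, BH adjusted p = 0.014). In MEC LDeep the LFC was 0.20 ± 0.18 (BH adjusted p = 0.34), and without the 3 libraries with ribosomal RNA it was 0.35 (BH adjusted p = 0.049). The receptor ratio, Ntrk2 over Ntrk3 per kilobase, averaged 1.10 ± 0.26 log2 units (SD, n = 9) at P2/P9 and 1.02 ± 0.09 (n = 7) at P23/P45. The difference of -0.087 was smaller than the spread (exact two-sided permutation test, p = 0.44). It was larger, at -0.16 (exact permutation test, p = 0.033), without replicate number 3 at P2, and it was -0.18 (p = 0.083 by the same permutation test) in MEC only, so a small fall of the ratio is not settled by these data.

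Ngfr, the p75 receptor, was the scarcest member, with 3 to 149 counts per library. In MEC LDeep it ranged from 1.92 to 4.13 log2 CPM (median 2.94) in the 9 younger and from 0.57 to 1.67 (median 1.20) in the 7 older libraries, and in LEC LDeep from 1.30 to 2.28 (median 1.82) and from -0.04 to 1.27 (median 0.50). In LDeep of both regions every younger library was therefore above every older one. In LII the ranges overlapped, at 1.07 to 3.12 and -0.47 to 2.00 in MEC and at 1.82 to 3.51 and 0.49 to 1.84 in LEC. The fall was called in MEC LII (LFC -0.71 ± 0.28, BH adjusted p = 0.022), MEC LDeep (LFC -1.97 ± 0.28, BH adjusted p = 1.6e-08), LEC LII (LFC -1.71 ± 0.29, BH adjusted p = 1.2e-06) and LEC LDeep (LFC -1.45 ± 0.31, BH adjusted p = 4.9e-05). That in MEC LII was lost without the 5 libraries whose meningeal level was unlike their layer (LFC -0.49, BH adjusted p = 0.094). Ngfr was called lower at both early steps (P9 minus P2, LFC -0.71 ± 0.17, BH adjusted p = 0.00038; P23 minus P9, LFC -0.94 ± 0.21, BH adjusted p = 0.00013).

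**Figure D4:**
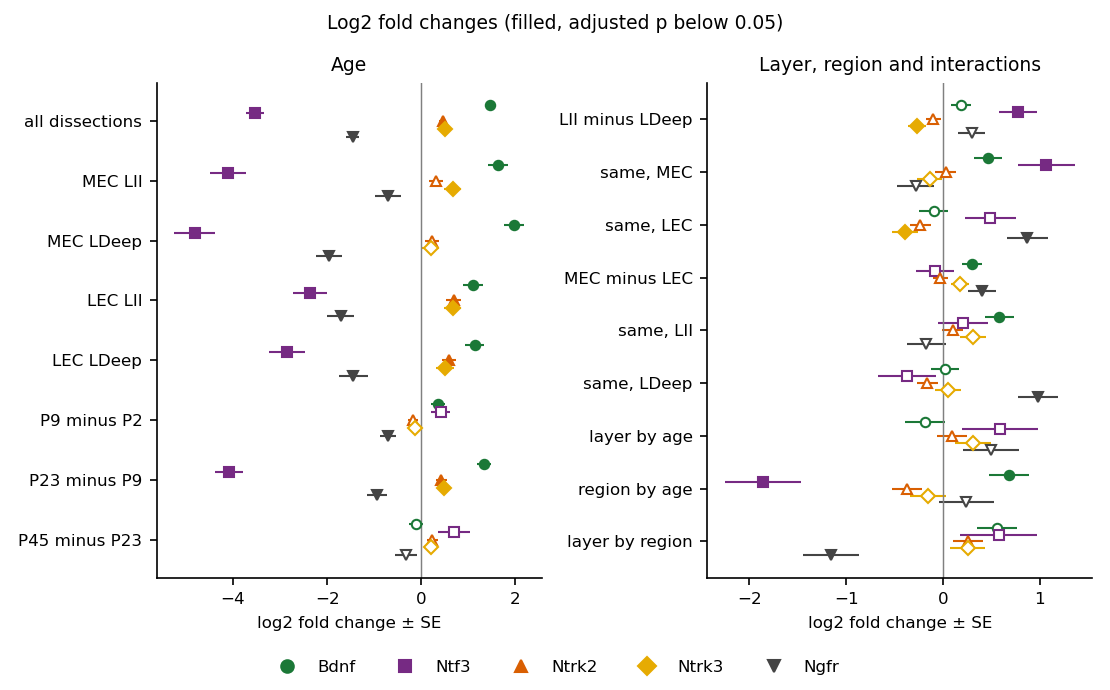
Log2 fold change ± SE of each member (colour and symbol) for age (left; P23/P45 minus P2/P9 overall and by dissection, then single steps) and for layer, region and their interactions (right); filled symbols passed BH adjusted p below 0.05. Ntf3 at -3.53 and Bdnf at 1.46 lie farthest apart with age, and no member is filled at the step from P23 to P45.

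The second question was whether LII and LDeep differed. Of the 5 members, Ntf3 was higher in LII (LFC 0.78 ± 0.20, BH adjusted p = 0.00075) and Ntrk3 was higher in LDeep (LFC -0.26 ± 0.09, BH adjusted p = 0.014). Neither region had both calls on its own. In all, 54% of genes tested were called, a larger share than of the 5 members. Bdnf (LFC 0.19 ± 0.10), Ngfr (0.30 ± 0.14) and Ntrk2 (-0.10 ± 0.08) were not called over both regions. At single ages, 3 of 20 member tests were called. Ntrk3 was lower in LII at P2 (LFC -0.52 ± 0.16, BH adjusted p = 0.019; background 19.2%), Ntf3 was higher at P23 (LFC 1.69 ± 0.54, BH adjusted p = 0.016; background 25.9%) and Ngfr was higher at P45 (LFC 0.84 ± 0.31, BH adjusted p = 0.036; background 26.4%). At P9, where 33% of genes were called, none was. Quantile normalization with limma voom lost the calls of Ntf3 (LFC 1.38, BH adjusted p = 0.31) and Ngfr (LFC 0.18, BH adjusted p = 0.77), and leaving out the 3 libraries with ribosomal RNA lost those of Ngfr (LFC 0.71, BH adjusted p = 0.092) and Ntrk3 (LFC -0.35, BH adjusted p = 0.093). The layer difference was called as different between younger and older animals at no member (background 8.8%), the smallest BH adjusted p being 0.33. Without the 5 libraries with an unlike meningeal level, that of Ntrk3 was called (LFC 0.50, BH adjusted p = 0.031).

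Ntf3 was higher in LII than in the LDeep library of the same replicate number in 13 of 16 cases in MEC and 12 of 16 in LEC. At P23 every LII library exceeded every LDeep library in both regions, from 1.4 to 1.85 against -1.30 to 0.60 log2 CPM in MEC and from 1.97 to 2.88 against 0.50 to 1.49 in LEC. At P45 this held in MEC (1.64 to 2.27 against 0.64 to 1.63) and not in LEC. With so few libraries a side, such separations, here and below, are descriptions, and their share over all genes was not counted. Within regions the difference was called in MEC (LFC 1.07 ± 0.29, BH adjusted p = 0.0026; background 40.8%) and not in LEC (LFC 0.49 ± 0.26, BH adjusted p = 0.14), and the difference between the regions was not called (LFC 0.58 ± 0.40, BH adjusted p = 0.58). Quantile normalization with limma voom, the normalization of the study, gave 0.58 over both regions and 0.83 in MEC, neither of which was called (BH adjusted p = 0.10 and 0.16).

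Meningeal fibroblast markers moved with the layers as well. Of 12 such markers, 11 were higher in LII and 1, Dcn, was lower (background 54%), with a median LFC of 3.79. Their summed level was 145 to 2148 CPM in LII (median 1284) and 114 to 1368 CPM in LDeep (median 186), and none of them was at 0 in either layer. Deviations of Ntf3 from its group mean went with those of the meningeal level (r = 0.44 over 64 libraries), and those of Ntrk3 went against them (r = -0.54). Neuronal markers gave values of similar size. With deep-layer neuron markers r was -0.38 for Ntf3 and 0.51 for Ntrk3, and with GABAergic markers it was -0.41 and 0.41. Without the 5 libraries with an unlike meningeal level the layer difference of Ntf3 was 0.92 ± 0.17 (BH adjusted p = 9.4e-06) and that of Ntrk3 was -0.37 ± 0.08 (BH adjusted p = 0.00014). All 9 endothelial and mural markers were also higher in LII (background 54%, median LFC 0.78). The part of any of these cell types in the layer differences was not tested.

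Bdnf was higher in LII within MEC (LFC 0.47 ± 0.15, BH adjusted p = 0.0084), in 13 of 16 replicate numbers, and had an LFC of -0.09 ± 0.15 in LEC, with 8 of 16. At P45 in MEC the layers did not overlap, at 5.77 to 5.92 log2 CPM in LII and 5.40 to 5.73 in LDeep. The difference between regions was not called with all libraries (LFC 0.56 ± 0.21, BH adjusted p = 0.21) but was without the 4 libraries that stood apart (P2 MEC LII replicate 1 and the 3 with ribosomal RNA; LFC 0.64, BH adjusted p = 0.038) or the 5 with unlike meningeal level (LFC 0.68, BH adjusted p = 0.026). Over both regions, Bdnf was called without P2 MEC LII replicate 1 (LFC 0.23, BH adjusted p = 0.031). Ntrk3 was lower in LII in LEC (LFC -0.39 ± 0.13, BH adjusted p = 0.015; background 38.6%), and there LII and LDeep did not overlap at P9 (5.17 to 5.56 against 5.65 to 6.27 log2 CPM) or P23 (5.75 to 5.87 against 5.98 to 6.58). In MEC the LFC of Ntrk3 was -0.14 ± 0.13 (BH adjusted p = 0.42), and without those 5 libraries it was -0.36 (BH adjusted p = 0.012). Ntrk3 was called over both regions at BH adjusted p = 0.014, but not when P23 MEC LII replicate 1, P23 MEC LII replicate 3 or P23 LEC LDeep replicate 2 was left out, with an LFC of -0.22 to -0.21.

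Ngfr had a layer difference that depended on the region (LFC of the interaction -1.15 ± 0.29, BH adjusted p = 0.023, a test that 1.25% of genes passed). In LEC it was higher in LII (LFC 0.87 ± 0.21, BH adjusted p = 0.00071), in 14 of 16 replicate numbers. In MEC the LFC was -0.28 ± 0.19 (BH adjusted p = 0.25), and LII was higher in 6 of 16. At P2 in LEC the LII libraries stood at 3.30, 3.51, 2.78, 2.45 and 3.34 log2 CPM and the LDeep libraries at 2.28, 1.79, 1.95, 1.75 and 1.88, with no overlap. At P2 in MEC the order was the other way for most libraries, at 3.03, 1.64, 2.30, 3.12 and 2.34 in LII and 2.61, 2.76, 4.13, 4.00 and 3.27 in LDeep. Leaving out 1 library or replicate number at a time kept the interaction called in 75 of 80 fits (LFC -1.38 to -1.01), the exceptions being the fits without replicate number 4 at P9, 1 or 3 at P23 and 1 or 3 at P45. The alternative of limma voom with quantile normalization gave -1.07 for the interaction (BH adjusted p = 0.10), 0.40 in LEC (BH adjusted p = 0.22) and -0.68 in MEC (BH adjusted p = 0.010).

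The third question was whether MEC and LEC differed. Over ages and layers, Bdnf (LFC 0.30 ± 0.10, BH adjusted p = 0.037) and Ngfr (LFC 0.41 ± 0.14, BH adjusted p = 0.042) were higher in MEC, where 15.4% of genes were called. Both calls were close to the threshold. That of Ngfr was lost in 4 of 9 alternative settings (LFC 0.37 to 0.48, BH adjusted p up to 0.13), among them the fits with the replicate number as a fixed or random block. That of Bdnf was lost in 23 of 80 fits without 1 library or replicate number and that of Ngfr in 40 of 80, including the fit without P2 MEC LII replicate 1 (LFC 0.39, BH adjusted p = 0.055). By layer, Bdnf was higher in MEC in LII (LFC 0.58 ± 0.15, BH adjusted p = 0.0041; background 12.6%), and its LFC in LDeep was 0.02 ± 0.15. Ngfr was the reverse, with an LFC of 0.98 ± 0.20 in LDeep (BH adjusted p = 0.00082; background 5.78%), higher in MEC in 15 of 16 replicate numbers, and of -0.17 ± 0.20 in LII. Ntf3 (-0.08 ± 0.19), Ntrk2 (-0.03 ± 0.08) and Ntrk3 (0.18 ± 0.09) were not called.

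The region difference of both ligands changed with age, in opposite senses. For Ntf3 the interaction of region and age had an LFC of -1.86 ± 0.40 (BH adjusted p = 0.0021), in a test that 4.38% of genes passed. Its LFC of MEC over LEC was 0.92 ± 0.27 at P2 and 0.78 ± 0.30 at P9, then -1.20 ± 0.55 at P23 and -0.82 ± 0.40 at P45, of which none was called alone with all libraries (2.67%, 3.88%, 3.57% and 9.12% of genes were). The value at P2, whose BH adjusted p was 0.052, passed in 5 of 9 alternative settings (LFC 0.89 to 1.07), among them the fit with the replicate number as a block (BH adjusted p = 0.013) and the fit without the 5 libraries with an unlike meningeal level (BH adjusted p = 0.0071). At P9 in LII, MEC libraries (5.61 to 6.51 log2 CPM) were all above LEC libraries (4.76 to 5.29), and at P23 in LII the MEC libraries (1.4 to 1.85) were all below those of LEC (1.97 to 2.88). At P45 the same was seen in LDeep, at 0.64 to 1.63 in MEC and 2.06 to 2.64 in LEC. The interaction of Ntf3 stayed called in all 80 fits that left out 1 library or replicate number (LFC -2.04 to -1.75), but not in limma voom with quantile normalization (LFC -1.88, BH adjusted p = 0.064).

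For Bdnf the interaction had an LFC of 0.69 ± 0.21 (BH adjusted p = 0.043). MEC and LEC had an LFC of -0.11 ± 0.19 at P2 and 0.03 ± 0.21 at P9, then 0.54 ± 0.23 at P23 and 0.75 ± 0.20 at P45, the last of which was called (BH adjusted p = 0.0090). At P45, Bdnf of MEC lay above that of LEC in every library of LII (5.77 to 5.92 against 4.33 to 5.38 log2 CPM) and of LDeep (5.40 to 5.73 against 4.40 to 5.34). This interaction was less firm than that of Ntf3, since it was lost in 43 of 80 fits without 1 library or replicate number (LFC 0.60 to 0.78) and without the 3 libraries with ribosomal RNA (LFC 0.63, BH adjusted p = 0.074). None of the 3 receptors had a called interaction of region and age (Ntrk2 LFC -0.37 ± 0.15, Ntrk3 -0.15 ± 0.18 and Ngfr 0.24 ± 0.28).

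**Figure D5:**
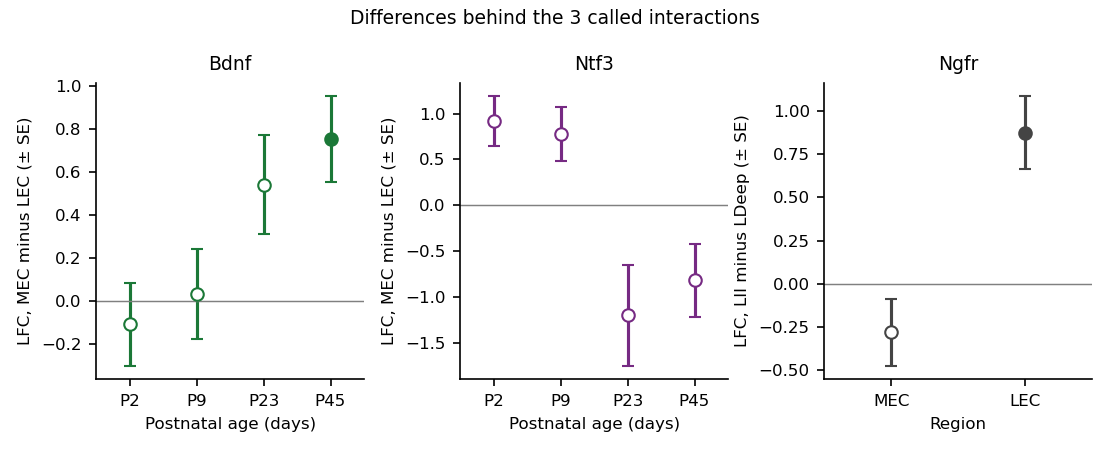
LFC ± SE of MEC minus LEC at each postnatal age for Bdnf and Ntf3, and of LII minus LDeep in each region for Ngfr; filled points passed BH adjusted p below 0.05. The Bdnf difference is near 0 at P2 and P9 and 0.75 at P45, that of Ntf3 crosses from 0.92 at P2 to -0.82 at P45, and that of Ngfr is 0.87 in LEC and -0.28 in MEC.

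The wider pathway was given by lists. Of 5 Vps10p receptors, some of which bind uncleaved neurotrophins with p75, 3 rose with age and 0 fell. Sorl1 rose most (LFC 1.78 ± 0.10, BH adjusted p = 1.3e-23), and the list had a median LFC of 0.24. Without the 5 libraries with unlike meningeal level, 5 of them rose. Of 7 tested proteases that process neurotrophins, 2 rose and 3 fell, with Mmp9, a secreted metalloproteinase, at an LFC of 2.03 ± 0.21 and the proprotein convertase Pcsk7 at -0.54 ± 0.05. Among 12 co-receptors and adaptors of p75, 7 rose and 4 fell, the largest changes being in Nfkb1 (LFC 1.01 ± 0.05), a transcription factor subunit, and in Nradd (LFC -1.96 ± 0.17), a p75-like protein. Among 25 Trk adaptors and kinases, 6 rose and 13 fell, and the extremes were Map2k1, the kinase MEK1 (LFC 1.77 ± 0.05), and Sh2b2, an adaptor (LFC -2.31 ± 0.08). Of 7 tested modulators of Trk signalling, 1 rose and 2 fell. Read against the background of 81.6%, 3 of 5, 5 of 7, 11 of 12, 19 of 25 and 3 of 7 genes called were near or below that share in all but the list of 12.

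Activity-regulated genes, a list without Bdnf itself, rose with age in 16 of 17 cases and fell in 0, where 81.6% of all genes were called. Their median LFC was 2.09 against 0.0058 for all genes. The transcription factor Fosb rose most (LFC 3.5 ± 0.20, BH adjusted p = 4.9e-23), and between P9 and P23, 15 of the 17 rose (background 64.6%). Without the 5 libraries with an unlike meningeal level, 16 rose and 1 fell. Their summed level was 209 to 1208 CPM at P2 and 671 to 1212 CPM at P45. Deviations of Bdnf from its group mean had r = -0.20 with those of the list over 64 libraries. With those of excitatory neuron markers r was 0.46. The summed level of these markers had a median of 920 CPM at P2 and 2404 CPM at P45, although Slc17a6 among them fell with age (LFC -1.74 ± 0.12). The part of neuronal activity or of excitatory neurons in the rise of Bdnf was not tested. By layer, 0 of the 17 were higher and 4 were lower in LII, a smaller share than the 54% called over all genes, led by Nr4a2 (LFC -1.92 ± 0.19), which also marks deep-layer neurons. Between layers, other list genes at the extremes were Plat, a protease that activates plasmin (LFC 1.18 ± 0.09), Pcsk5, a proprotein convertase (LFC -1.34 ± 0.11), Shc1, a Trk adaptor (LFC 1.02 ± 0.09), and Dusp6, a phosphatase of the kinase cascade (LFC -0.55 ± 0.06).

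The order of the 16 groups was compared for each member. For Bdnf it ran from P23 MEC LII (5.88 ± 0.37 log2 CPM, SD, n = 3) to P2 MEC LDeep (3.40 ± 0.52, n = 5), and all 8 older groups stood above all 8 younger ones. For Ntf3 the reverse order held, from P9 MEC LII (5.99 ± 0.41, n = 4) to P23 MEC LDeep (-0.26 ± 0.97, n = 3). Neighbours in these orders mostly differed by less than the larger of their SDs, in 14 of 15 pairs for Bdnf, Ntrk2 and Ngfr, 13 of 15 for Ntf3 and 15 of 15 for Ntrk3. For Ntf3 a pair beyond its spread was the boundary between P2 LEC LDeep (3.98 ± 1.10) and P23 LEC LII (2.47 ± 0.47). Ntrk2 ran from P45 LEC LII (9.35 ± 0.46) to P2 LEC LII (8.33 ± 0.19), Ntrk3 from P45 LEC LDeep (6.38 ± 0.49) to P9 LEC LII (5.36 ± 0.16), and Ngfr from P2 MEC LDeep (3.36 ± 0.69) to P45 LEC LDeep (0.37 ± 0.21).

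Genes most like each member in pattern were found by Pearson's r of the 16 group means of log2 CPM, among 11897 genes with a mean of at least 1 CPM. This is a description, in which points share age groups and libraries. Nearest to Bdnf were Oxr1 (r = 0.98) and Setd7 (r = 0.97), and nearest to Ntf3 were Pak6 (r = 0.96), Nrarp (r = 0.95) and Ankrd55 (r = 0.95). Ntrk2 was most like Zfhx2 (r = 0.93), Golga4 (r = 0.92) and Pitpnm2 (r = 0.91), and Ntrk3 most like Ak4 (r = 0.93), Zfhx2 (r = 0.92) and Madd (r = 0.91), so that the transcription factor gene Zfhx2 was named for both kinases. Ngfr was most like Tmtc4 (r = 0.94), Pcsk7 (r = 0.92) and Nav2 (r = 0.91), of which Pcsk7 also stood in the list of processing proteases. Among the members themselves, Ntrk2 and Ntrk3 were alike (r = 0.84), and Bdnf and Ntf3 were opposed (r = -0.84).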

How the data were processed

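Total RNA depleted of ribosomal RNA was sequenced as stranded paired reads from 64 libraries of 16 groups (age, region and layer), grouped by their titles. The authors demultiplexed with bcl2fastq 1.8.4, trimmed with Trimmomatic 0.33, aligned to Rn6 with STAR 2.4.0 and counted read pairs per RefSeq gene by strand with featureCounts (Subread 1.4.6-p1). The deposited values are raw counts per gene, with no normalization. Here, the 12521 of 17260 genes that passed edgeR's filterByExpr were scaled by TMM and tested with edgeR's quasi-likelihood test (edgeR 4.0.16, R 4.3.3) in a single fit of 16 group means. P-values were adjusted by Benjamini-Hochberg (BH) over all genes tested, and a gene was called at an adjusted p below 0.05. Log2 CPM used a prior count of 2, and ratios a prior count of 0.5. Counting error sets a step of 0.0874 to 0.257 CPM per count. The labels do not say whether libraries of the same replicate number came from the same animal, so p-values measure the spread between libraries. Same-numbered libraries correlated only weakly in their deviations (mean r = 0.13, 55 of 96 pairs above 0.1), though more than different-numbered ones (mean r = -0.043, 59 of 300 pairs). The mean r of same-numbered libraries was above 0.1 for each pair of dissections (0.11 to 0.17), so the numbers may pair the libraries. The main fit takes libraries as independent. If the numbers do pair them, its age p-values are too small, and its layer and region tests ignore the pairing. Fits with the number as a block are alternatives. Alternatives were RLE size factors, other filters, DESeq2 1.42.0, limma 3.58.1 voom with quantile normalization, replicate blocks, and leaving out each library or replicate number. Leaving out 3, 4 or 5 doubted libraries was added after seeing the data. The scripts were tested on simulated data.

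All 5 members are reported in the age, layer and region differences, and in other contrasts mainly where called or named. A list gene is named only where it is Ntf4, has the largest change of its list and direction in the age or layer difference, or is a marker set beside a member, and genes among the 3 most like each member are named. Some genes that this rule names are not reported here. The members and gene lists were chosen with earlier results of these data known.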

Additional observations from a re-analysis of the deposited data

Results flagged for a closer look

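Within groups of 4 or 5 libraries, 7 of 60 sets of member values had a library far from the others by Dixon's test, which chance flags in about 1 of 20. For Bdnf, P45 LEC LDeep replicate 4 had 4.40 log2 CPM, where the others had 5.23 to 5.34. For Ntf3, P2 LEC LII replicate 1 had 5.57, against 3.86 to 4.13. The other 5 were in Ntrk2. It stood at 9.29 in the library labelled P2 MEC LII replicate 1 (others 8.50 to 8.66), which lacked Slc17a7, and at 8.79 in P9 MEC LII replicate 2 (8.50 to 8.52). It was 9.64 in P2 MEC LDeep replicate 4 (8.51 to 8.69) and 10.14 in P45 LEC LDeep replicate 4 (8.84 to 9.01), both with over 0.2% of counts on ribosomal RNA genes. It was low, at 8.68, in P45 MEC LDeep replicate 1 (8.98 to 9.01).

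In 3 cases the difference of a difference was itself called by edgeR. The region difference changed with age for Bdnf (LFC 0.69) and Ntf3 (LFC -1.86), and the layer difference changed with region for Ngfr (LFC -1.15).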

How the results depend on the processing

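The age difference of the 5 members kept its direction and its call under each alternative and in all 80 fits that left out a library or replicate number, and the ligand ratio kept its direction. At least 10 counts in every sample, a filter that Ntf3 and Ngfr did not pass, left 4353 genes called between layers. For Ngfr, MEC minus LEC was not called with no filter (LFC 0.41, adjusted p = 0.050), under limma voom with quantile normalization (0.37) or with a random block (0.37), and that of Bdnf was 0.27 with the random block, where it reversed to -0.011 in LDeep and -0.016 at P9. The fixed replicate block gave 0.38 for Ngfr (adjusted p = 0.053) and 286 genes called for layer by region, against 156 without it, and among the other calls of members it changed that of Ntf3 between regions at P2 (0.96, called). In 42 of 64 libraries the best correlation was with their own number, a hint of pairing from the data. Quantile normalization gave a layer difference of 0.58 for Ntf3, and reversed it to -0.14 for Ngfr and 0.029 for Ntrk2, and it gave -1.88 for region by age of Ntf3 and -1.07 for layer by region of Ngfr, none called.

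Without the 3 libraries with ribosomal RNA, Ntrk2 reversed to 0.0019 between regions and Ntrk3 to 0.030 in region by age, and region by age of Bdnf was 0.63, not called. Without the 4 that stood apart, Bdnf reversed to 0.070 between regions at P2 and Ntrk3 to 0.095 in region by age, layer by region of Bdnf was called at 0.64, and 289 genes were called for layer by region. Without the 5 with an unlike meningeal level, Ntrk3 reversed to 0.0078 from P2 to P9, Ntrk2 to -0.034 between layers of MEC, and Bdnf to -0.085 between regions in LDeep and -0.12 at P9. The layer difference of Bdnf (0.26), layer by age of Ntrk3 (0.50) and layer by region of Bdnf (0.68) were then called, and 877 genes were called for region by age.

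With a library or replicate number left out, the layer difference ranged from -0.29 to -0.21 for Ntrk3, 0.15 to 0.24 for Bdnf and 0.22 to 0.40 for Ngfr, and in MEC from -0.015 to 0.11 for Ntrk2. The region difference ranged from 0.26 to 0.34 for Bdnf, 0.34 to 0.45 for Ngfr and -0.067 to 0.034 for Ntrk2. Layer by age of Ntrk2 ranged from -0.028 to 0.14, region by age of Bdnf from 0.60 to 0.78 and layer by region of Ngfr from -1.38 to -1.01. Genes called ranged from 302 to 666 for region by age and from 63 to 218 for layer by region. The receptor ratio changed by -0.16 to -0.040, and by 0.011 in LEC only. The cause of these changes was not tested.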
